A study of Mus musculus with 74 samples.

Results

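Rnase4, Ang and Rnh1 encode ribonuclease 4, angiogenin and the ribonuclease inhibitor. These 3 genes, of 22066 gene symbols with group means in the series, were taken by their gene name from each table. Rnase4 and Rnh1 were listed once in all 5 tables with group means, and Ang was listed once in 3 of them. Bulk RNA-seq compared primary mammary tumors (PT) with lung metastases (Lung met) of transgenic mice, 74 samples in all. The FVB Her2 model carries an MMTV-neu transgene and the FVB C3Tag model a C3(1)-TAg transgene, both from transgenic males crossed to FVB/NJ females. The PyMT-F1 models come from FVB males with the MMTV-PyMT transgene crossed to AKR/J, BALB/cJ or Sea/GnJ females, and are called AKR, BALB and SEAGN PyMT-F1. All animals were transgene-positive females, with no drug treatment labelled and no age stated for these samples. PyMT-positive mice were aged to a humane endpoint, whereas in the Her2 and C3Tag models single tumors were removed by surgery while small and the mice were kept for a further period, so that PT and Lung met were taken at different times. The labels assign 6 PTs and 6 Lung mets to each of these models, apart from 7 and 7 in C3Tag. The MMTV promoter drives a transgene in mammary epithelium, and C3(1) is a prostatein promoter that is also active there. For PT, the pooled tumor tissue of 1 mouse was ground and sampled, whereas whole metastases were used for Lung met, so that each value mixes tumor cells with the tissue around them. The FVB Myc comparison was not analysed here because it held no group mean.

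Each value below is the authors' mean of normalized counts in a tissue, given without an SD because no value of a single sample was analysed. A log2 ratio is the log2 of the Lung met mean over the PT mean. Without the spread between animals no difference could be tested, and the depth of each sample is unknown. Every statement of higher or lower therefore compares 2 means and nothing more. Each table was normalized on its own, so levels are compared within a table only. In 23 of 36 PyMT-F1 samples the genotype label names another strain than the sample title, from which the groups were taken, and 16 of the 74 samples have source and tissue labels that differ. Which animals entered the means deposited under AKR, BALB and SEAGN was not settled.

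Ribonucleases of the RNase A family are small secreted enzymes that cleave RNA. Angiogenin is known for promoting the growth of blood vessels, for entering the nucleus of target cells, where it can promote the transcription of ribosomal RNA, and for cutting tRNAs during stress. The ribonuclease inhibitor, a leucine-rich repeat protein of the cytosol, binds ribonucleases of this family very tightly and blocks them. Ang lies within the span of Rnase4, and the genes share promoters and noncoding first exons that are spliced to a separate coding exon for each protein. The question of the comparison is whether the pair moves together between PT and Lung met.

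In the GENCODE M21 annotation of GRCm38, Rnase4 (ENSMUSG00000021876) spans chr14:51091077-51106151 and Ang (ENSMUSG00000072115) spans chr14:51091150-51102009, both on the plus strand. Each gene has an upstream and a downstream transcript. The upstream ones begin at base 51091077 for Rnase4 and 51091150 for Ang, and their first exons end on the same base, 51091253. The downstream ones begin at base 51096000 for Ang and 51096359 for Rnase4, and their first exons also end together, at 51096473. The coding exon of Ang starts at base 51101386 and that of Rnase4 at base 51104807. The genes have 219 exonic bases in common, 13.4% of the 1637 exonic bases of Rnase4 and 18.2% of the 1202 of Ang. None of the 444 coding bases of Rnase4 or the 435 of Ang lies in an exon of the other gene. Rnh1 (ENSMUSG00000038650) lies on the minus strand of another chromosome, at chr7:141160326-141172857, with 5 annotated transcripts.

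**Figure D1:**
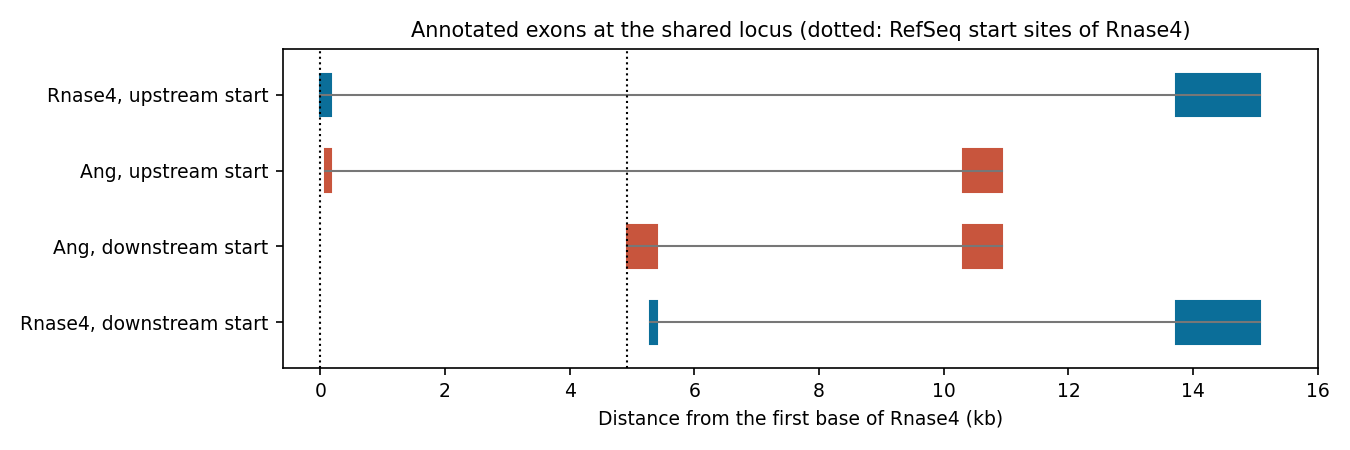
Exons of the 4 annotated transcripts of Rnase4 (blue) and Ang (red), drawn to scale against the distance in kb from the first base of Rnase4. The first exons pair up at each of the 2 start regions (dotted lines, RefSeq start sites of Rnase4), while the coding exons of the genes stand apart on the right.

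RefSeq gives promoter windows on GRCm38.p6 for all 3 genes, 1 for Ang, 2 for Rnase4 and 3 for Rnh1. The window of Ang is identical to the first one of Rnase4, and the second Rnase4 window has its start site on the first base of the downstream Ang transcript, 4923 bases downstream. The 250 bases before the start site are shown for both windows of the shared locus, because they precede the first exons of both genes. Of the 3 windows of Rnh1, 1 is shown. Capitals mark exact matches to a searched motif on either strand. The motifs were the GC box core GGGCGG, the CCAAT box, the TATA box as TATAAA, the E-box CACGTG, the palindrome TTCNNNGAA of STAT factors and GTTAAT of HNF1 sites, and no matches overlapped in these windows.
Rnase4 and Ang, first window, chr14:51090827-51091076, plus strand: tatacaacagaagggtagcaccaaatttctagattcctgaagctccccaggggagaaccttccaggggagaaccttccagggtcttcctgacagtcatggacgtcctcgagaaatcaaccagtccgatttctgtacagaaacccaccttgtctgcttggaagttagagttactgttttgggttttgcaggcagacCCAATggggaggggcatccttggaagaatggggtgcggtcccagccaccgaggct
Rnase4, second window, chr14:51095750-51095999, plus strand: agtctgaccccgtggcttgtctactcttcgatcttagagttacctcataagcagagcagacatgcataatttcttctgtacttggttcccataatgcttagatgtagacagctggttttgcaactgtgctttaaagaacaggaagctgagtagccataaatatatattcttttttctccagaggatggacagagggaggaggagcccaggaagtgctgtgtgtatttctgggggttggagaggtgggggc
Rnh1, chr7:141168687-141168936, minus strand: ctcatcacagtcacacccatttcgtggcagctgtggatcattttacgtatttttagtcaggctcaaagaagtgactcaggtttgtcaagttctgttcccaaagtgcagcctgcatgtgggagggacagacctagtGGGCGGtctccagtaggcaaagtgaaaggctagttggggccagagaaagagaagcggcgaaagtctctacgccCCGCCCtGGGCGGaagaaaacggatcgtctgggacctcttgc
The shared first window held 1 CCAAT, starting at base -55 from the start site, a motif found in 33.8% of 32851 promoters of the same length. The second window held none of the 6 motifs. The Rnh1 window shown held 3 matches to GGGCGG, at bases -115, -42 and -35, and 32.7% of promoters held at least 1. The other Rnh1 windows held no GGGCGG. Of these, the one starting at chr7:141168937 held 1 TATAAA, at base -188, and the one at chr7:141172852 held 1 CACGTG, at base -20. Of the motifs without a match in the windows shown, TATAAA was held by 12.4% of promoters, CACGTG by 6.02%, TTCNNNGAA by 7.02% and GTTAAT by 6.43%. The first window had a GC content of 52.4% with 5 CG dinucleotides, the second 46% with 2, and that of Rnh1 53.2% with 10. A match is a run of letters and not a bound site.

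Rnase4 was higher in Lung met than in PT in 4 of the 5 models and past 2-fold in 1. In C3Tag the mean of Rnase4 was 613 in PT and 2482 in Lung met, a log2 ratio of 2.02, or 4.05 times the PT mean. In AKR PyMT-F1 it was 762 in PT and 1428 in Lung met, a log2 ratio of 0.91. Both lay far up in the distribution of their table: 97.8% of genes in C3Tag and 91.9% in AKR PyMT-F1 had a lower log2 ratio. In SEAGN PyMT-F1 the PT mean was 186 and the Lung met mean 285, a log2 ratio of 0.62 that exceeded those of 94.2% of genes. In BALB PyMT-F1 the means were 155 and 191, with a log2 ratio of 0.30 that exceeded 86.4% of genes. Her2 differed in sign. There the Rnase4 mean was 847 in PT and 730 in Lung met, a log2 ratio of -0.21 with only 14.9% of genes below it. In descending order of the log2 ratio the models were C3Tag, AKR, SEAGN, BALB and Her2. Without the spread between animals, no neighbors in that order can be said to differ.

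Ang was higher in Lung met in all 3 models in which it was listed, and past 2-fold in 2. In C3Tag its mean was 21.6 in PT and 193 in Lung met, a log2 ratio of 3.16, or 8.94 times the PT mean. That placed Ang above 99.3% of genes. In AKR PyMT-F1 the mean was 44.1 in PT and 94.9 in Lung met, a log2 ratio of 1.11, above 93.8% of genes. This value lay close to the 2-fold line and was under it, at 0.96, when 10 was added to both means, and at 0.995 when the sums of all means were made equal. In Her2 the mean was 27.2 in PT and 31.0 in Lung met, a log2 ratio of 0.19. The order of the models, C3Tag, AKR, Her2, was that of Rnase4. Neither the BALB nor the SEAGN table had a row named Ang, and 2678 and 2686 of their rows carry no gene name. There Rnase4 and Rnh1 carry MGP_BALBcJ gene identifiers, whereas in Her2, C3Tag and AKR the members carry ENSMUSG identifiers. Ranks and shares may thus rest on different gene sets, and the bearing on the absence of Ang was not tested.

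Rnh1, the inhibitor, differed little between tissues in any model. In Her2 its mean was 4394 in PT and 3977 in Lung met, a log2 ratio of -0.14. In C3Tag it was 1961 in PT and 2540.4 in Lung met, a log2 ratio of 0.37 above 79.6% of genes. In AKR PyMT-F1 the means were 4312 and 4524, a log2 ratio of 0.07. The BALB means were 708 and 734 and the SEAGN means 622 and 716, with log2 ratios of 0.05 and 0.20. The log2 ratios of Rnh1 thus spanned 0.52 over the 5 models, against 2.23 for Rnase4 over the same models and 2.97 for Ang over 3. In C3Tag the Rnh1 ratio was 1.18 when the sums of all means were made equal, because 38.3% of the summed PT means there came from 1 gene, Gm22614. Without that gene the summed means of the tissues differed by a log2 ratio of -0.11. Equal sums also turned the sign of the Rnh1 ratio in AKR, to -0.04, and in BALB, to -0.0032.

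The 2-fold counts of the members can be read against all genes with a mean over both tissues of at least 10. At least 2-fold higher in Lung met were 2.25% of 17100 genes in Her2, 7.52% of 18331 in C3Tag, 7.16% of 16791 in AKR, 2.07% of 15397 in BALB and 2.65% of 15401 in SEAGN. Rnase4 and Ang stood among the higher genes in C3Tag, and Ang alone in AKR. No member was at least 2-fold lower in any model. The median log2 ratio of all genes lay between -0.002 and 0.03.

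**Figure D2:**
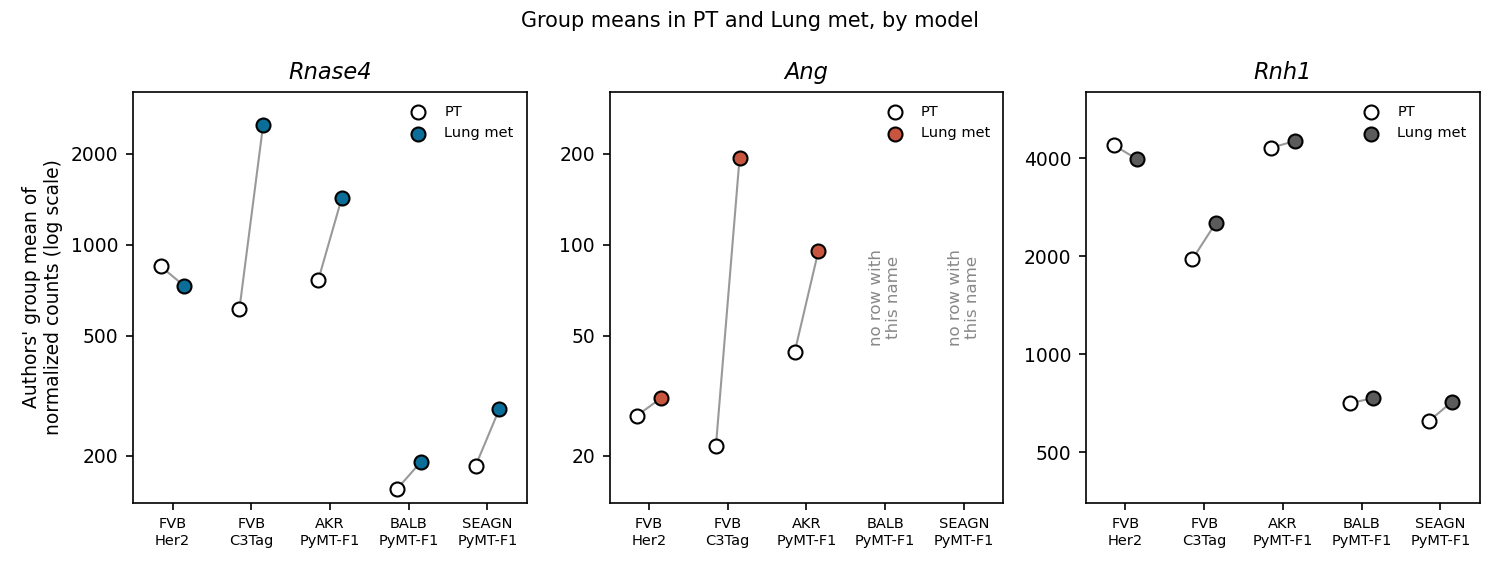
Means of normalized counts, as the authors gave them, of Rnase4, Ang and Rnh1 in PT (open) and Lung met (filled) of each model, on log axes that differ between genes. Heights are comparable within a model only. The widest gaps are those of Rnase4 (613 to 2482) and Ang (21.6 to 193) in C3Tag, and no spread between animals is known.

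**Figure D3:**
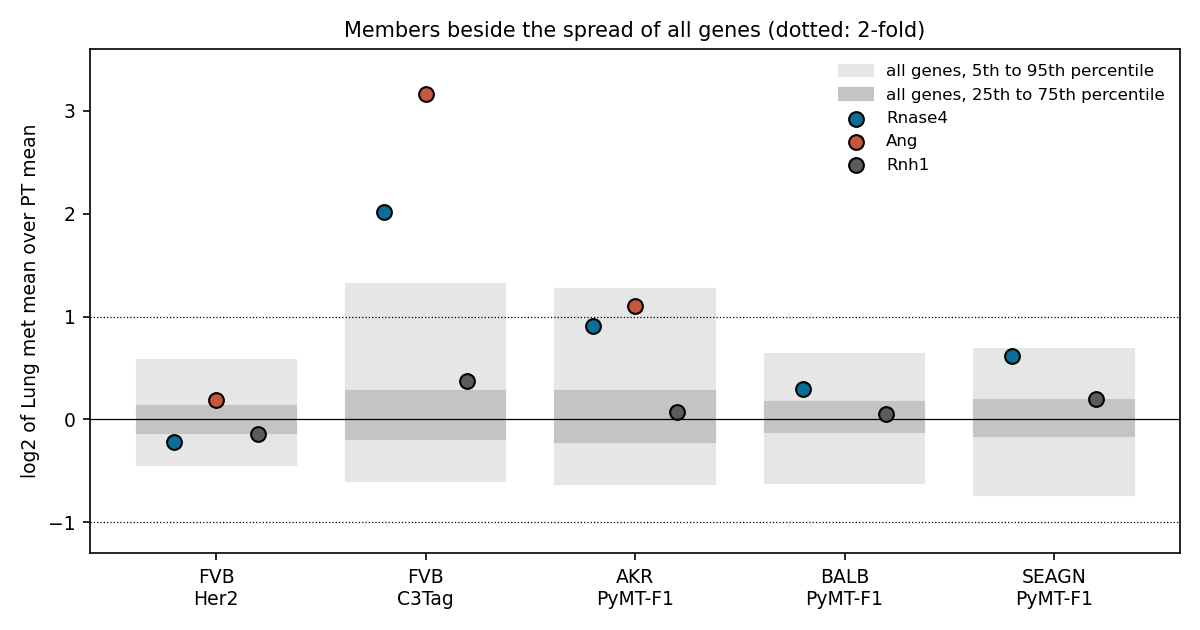
Log2 of the Lung met mean over the PT mean for each gene and model, beside the range of all genes with a mean of at least 10 (light bars, 5th to 95th percentile, dark bars, 25th to 75th). In C3Tag, Rnase4 at 2.02 and Ang at 3.16 lie above the 95th percentile of 1.32, and in AKR, at 0.91 and 1.11, they lie under the 95th percentile of 1.27.

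Over the 3 models with both genes, Rnase4 and Ang kept the same order of models but not the same size of difference. The 95th percentile of all genes ran in that order too, at 1.32 in C3Tag, 1.27 in AKR and 0.58 in Her2. How many other genes kept it was not counted. The log2 ratio of Ang exceeded that of Rnase4 by 0.40 in Her2, 1.14 in C3Tag and 0.20 in AKR. In Her2 the signs were opposite, with Rnase4 at -0.21 and Ang at 0.19. As a scale for these gaps, pairs of protein-coding genes that overlap on the same strand differed by a median of 0.26 in Her2 (526 pairs), 0.30 in C3Tag (588 pairs) and 0.40 in AKR (437 pairs). The gap between Ang and Rnase4 was wider than that of 66.9% of such pairs in Her2 and 86.4% in C3Tag, and wider than 25.4% in AKR. The pair was thus nearer to each other than most overlapping pairs in AKR and farther apart than most in C3Tag. Overlapping pairs had log2 ratios of the same sign in 57.0% of cases in Her2, 60.2% in C3Tag and 60.4% in AKR.

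Rnase4 made up most of the signal of the locus. Per kb of exon, the mean of Ang in Her2 was 22.6 in PT and 25.8 in Lung met, beside 518 and 446 for Rnase4. In C3Tag the means per kb were 18.0 and 161 for Ang, beside 375 and 1516 for Rnase4. In AKR they were 36.7 and 79.0 for Ang, beside 465 and 872 for Rnase4. Ang thus reached 4.37%, 4.79% and 7.88% of the Rnase4 level per kb in the PTs of Her2, C3Tag and AKR, and 5.79%, 10.6% and 9.06% in the Lung mets. Its level relative to Rnase4 was higher in Lung met in each of the 3. Summed over both genes, the log2 ratio of the locus was -0.20 in Her2, 2.07 in C3Tag and 0.92 in AKR, close to that of Rnase4 alone.

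How the counting divided reads between both genes is not given in the sources used here. Of the 1152 distinct runs of 50 bases in the Ang transcripts, 10.7% also occur in Rnase4 and 3.82% in its paralog Ang2. Of the 1587 runs in Rnase4, 7.75% are shared, all with Ang, and none of the 2555 runs in Rnh1 occurs in another gene. Reads of the shared first exons could be counted to either gene, which weighs more on the low Ang means.

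Within their tissue the members stood at different heights. In PT, Rnase4 had a mean above 63.4% of genes in Her2, 60.6% in C3Tag, 59.7% in AKR, 53.8% in BALB and 59.0% in SEAGN. In Lung met the shares were 60.1%, 88.0%, 74.7%, 57.7% and 68.7% in the same order of models. Ang was a low gene, above 16.9% of genes in Her2, 13.6% in C3Tag and 21.7% in AKR in PT, and above 17.9%, 39.0% and 27.7% in Lung met. Rnh1 was among the high genes in both tissues of every model, between 85.0% and 93.8% in PT and between 86.1% and 93.8% in Lung met. These ranks are not corrected for gene length.

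The difference between enzyme and inhibitor followed the enzymes, since Rnh1 varied least. The log2 ratio of Rnase4 minus that of Rnh1 was -0.07 in Her2, 1.64 in C3Tag, 0.84 in AKR, 0.24 in BALB and 0.42 in SEAGN. For Ang the same difference was 0.33 in Her2, 2.79 in C3Tag and 1.04 in AKR. These are differences of transcript ratios, and protein was not measured.

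Other genes of the RNase A family were scarce in the tables. Of 21 family genes looked for, both members included, 4 had means in Her2, 3 in C3Tag, 6 in AKR and 1, Rnase4, in each of BALB and SEAGN. In C3Tag all 3 (Rnase4, Ang and Ear2) were at least 2-fold higher in Lung met, and in AKR 4 of 6, Ang included. Among all genes that share was 7.52% in C3Tag, 7.16% in AKR and 2.07% to 2.65% in the other models. No family gene was 2-fold higher in Her2, or in BALB and SEAGN, where only Rnase4 had means, and none was 2-fold lower. The family median log2 ratio was -0.01 in Her2, 3.16 in C3Tag, which is the value of Ang, and 1.09 in AKR. The remaining genes on the list had no means under these names, which does not show that they are silent.

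Ear2, an eosinophil-associated ribonuclease, had the largest ratios of the family. Its mean was 20.3 in PT and 1227 in Lung met in C3Tag, a log2 ratio of 5.92, and 40.8 and 804 in AKR, a log2 ratio of 4.30. Rnase6 (ribonuclease k6, an antimicrobial ribonuclease) lies 17.8 kb beyond Rnase4. Its means were 20.0 and 25.2 in Her2, a log2 ratio of 0.34, and 18.6 and 46.5 in AKR, a log2 ratio of 1.32. Rnase1, the pancreatic-type ribonuclease that endothelium also secretes, lies 38.8 kb beyond Rnase4 on the other strand. Its mean was 57.9 in PT and 37.1 in Lung met in Her2, a log2 ratio of -0.64, and 9.28 and 19.4 in AKR, a log2 ratio of 1.06. Ang2, a paralog of angiogenin, had means only in AKR, 9.44 in PT and 15.6 in Lung met, a log2 ratio of 0.73. In AKR every listed gene of the family, Rnase4 and Ang among them, was thus higher in Lung met. The AKR means of Rnase1 and Ang2 in PT, 9.28 and 9.44, were under 10. Their means over both tissues reached the cut-off of 10 only through Lung met. In Her2 2 were higher, Ang among them, and 2 lower, Rnase4 among them.

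**Figure D4:**
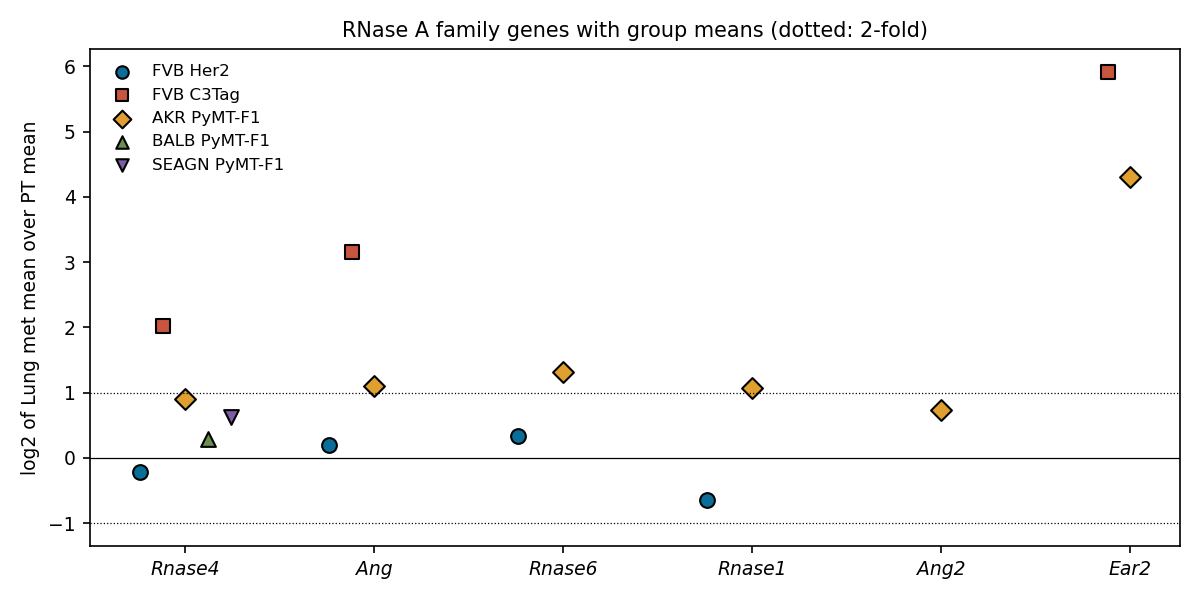
Log2 of the Lung met mean over the PT mean for the 6 RNase A family genes that had means in any table, with 1 marker shape per model. All AKR points lie above 0, as do those of C3Tag, which has points for Rnase4, Ang and Ear2 only, up to Ear2 at 5.92. The Her2 points lie between -0.64 and 0.34.

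On the lower-coordinate side of the locus the nearest protein-coding genes with means were Pnp and Pnp2, purine nucleoside phosphorylases, and Gm49342, which overlaps both. These lie 125.8 to 127.9 kb away. The log2 ratio of Pnp was -0.03 in Her2, 0.34 in C3Tag, 0.04 in AKR, 0.13 in BALB and 0.32 in SEAGN. Gm49342 had log2 ratios of 0.26 in Her2, 0.22 in C3Tag and 0.03 in AKR, and Pnp2 had 0.31 in Her2 and 0.65 in AKR. None of the 3 was past 2-fold in any table.

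Around Rnh1, Ptdss2 (a phosphatidylserine synthase, 2.72 kb away) had log2 ratios from -0.22 in C3Tag to 0.20 in SEAGN. The GTPase gene Hras, 16.2 kb away on the other side, ranged from -0.16 in SEAGN to 0.40 in AKR. Sigirr, a negative regulator of interleukin receptor signaling, ranged from -0.21 in AKR to 0.26 in SEAGN, Lrrc56 from -0.33 in C3Tag to 0.07 in Her2, and Lmntd2 from -0.60 in AKR to 0.03 in Her2. Ano9, which encodes a membrane protein of the anoctamin family, was lower in Lung met in all 5 models. Its log2 ratios lay between -1.03 in AKR, where the mean was 356 in PT and 175 in Lung met, and -0.32 in BALB.

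Genes that angiogenin acts on or through showed few ratios past 2-fold, as did genes at large. Among all genes, 2.07% to 7.52% were at least 2-fold higher and 1.42% to 2.9% lower, by model. Of 6 genes for receptors and binding partners of angiogenin, 5 had a mean of at least 10 in each table, and 1, Fst, was 2-fold higher in 1 table. Fst encodes follistatin, an activin antagonist that binds angiogenin, and its mean in Her2 was 16.0 in PT and 32.3 in Lung met, a log2 ratio of 1.01. Sdc1, the proteoglycan syndecan-1, had the highest median log2 ratio of the list, 0.48 over 5 tables, and Egfr, the epidermal growth factor receptor, the lowest, -0.06. The log2 ratios of Plxnb2, the angiogenin receptor plexin-B2, lay between 0.09 and 0.34.

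The next counts are likewise to be read beside the shares of all genes, at most 7.52% higher and 2.9% lower. None of the 11 genes for ribosomal RNA transcription was past 2-fold in any table. Their medians lay between 0.10 for Taf1d and -0.12 for Taf1b, both subunits of the selectivity factor of RNA polymerase I. Of 13 other ribonucleases, 1 was past 2-fold in 1 table: Rnasek (ribonuclease K), with means of 960 and 2096 and a log2 ratio of 1.13 in AKR. Endou, an endoribonuclease with means in 1 table, had the highest median of that list, 0.34, and Rnaseh2b, a subunit of ribonuclease H2, the lowest, -0.34 over 3 tables. The medians of these lists and of the receptor list lay between -0.12 and 0.32 in every table.

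Most alveolar and endothelial markers had higher means in Lung met than in PT, and in bulk tissue more cells of a type and more RNA per cell cannot be told apart. Of 5 alveolar type 1 markers, 4 were at least 2-fold higher in Lung met in Her2, AKR, BALB and SEAGN and all 5 in C3Tag. Among all genes that share was 2.07% to 7.52%, by model. The list medians were 3.73 in Her2, 4.07 in C3Tag, 3.99 in AKR, 3.37 in BALB and 4.05 in SEAGN. The summed level of the list ran from 2238 to 57861 in PT and from 2893 to 56269 in Lung met, and was carried by Aqp5, a water channel whose log2 ratio ranged from -0.66 to 1.69. Of 7 alveolar type 2 markers, 4 (Sftpd, Lamp3, Abca3 and Slc34a2) were analysed, and their median was 1.24 in Her2, 7.06 in C3Tag, 3.50 in AKR, 3.96 in BALB and 4.57 in SEAGN. Their summed level was 1925 to 8704 in PT and 5628 to 37278 in Lung met. The 6 endothelial markers had medians of 0.57 in Her2, 1.46 in C3Tag, 1.75 in AKR, 0.67 in BALB and 0.74 in SEAGN, and summed to 866 to 3065 in PT and 1433 to 7867 in Lung met. In Her2, Ager (an alveolar type 1 marker) was at 62.5 in PT and 1847 in Lung met, and Aqp5 of the same list had a log2 ratio of -0.13. The alveolar type 2 marker Abca3 had log2 ratios of -0.02 in Her2 and -0.21 in AKR, against 0.36 to 1.88 in the other models. The alveolar type 2 median was highest in C3Tag and lowest in Her2, as the Rnase4 ratio was, but between them ran SEAGN, BALB and AKR for the markers and AKR, SEAGN and BALB for Rnase4. The alveolar type 1 medians ran C3Tag, SEAGN, AKR, Her2 and BALB. The endothelial medians ran in the order of Rnase4 except that AKR stood ahead of C3Tag. As for Rnase4, no neighbors in these orders can be said to differ. The part of lung tissue in the ratios of Rnase4 and Ang was not tested.

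Macrophage markers had means for 4 or 5 of 6 genes, with medians of -0.32 in Her2, 0.43 in C3Tag, 0.33 in AKR, -0.09 in BALB and 0.22 in SEAGN. The order of these medians, from C3Tag to Her2, is that of the Rnase4 ratios, but the genes behind them differ between models. None of the markers with means in all 5 models kept that order, and Cd68 was highest in AKR, at 1.16. In Her2 the markers went opposite ways, with Chil3 at 5.83 and Mrc1 at -1.64, and Chil3 had means only in Her2 and SEAGN. In SEAGN the PT mean of Chil3 was 6.27, so it passed the cut-off only through Lung met. The summed level was 756 to 4813 in PT and 762 to 5614 in Lung met. Fibroblast markers had medians between -2.42 in SEAGN and -0.06 in C3Tag, and sums of 8754 to 26264 in PT and 2329 to 23265 in Lung met. Of these, Pdgfra had a log2 ratio above 0 in all 5 models, from 0.44 to 0.94, and so did Dcn in C3Tag, at 0.75. The luminal mammary markers, which stand for the labelled mammary tumor tissue, were present at sums of 16481 to 272320 in PT and 18373 to 253010 in Lung met, with medians between -0.19 and 0.21. Of 4 hepatocyte markers, a cell type in which Rnase4 and Ang are abundant, 1 had means in Her2 and C3Tag, summing to at most 14.8, and none had means in the other tables. The club, ciliated and adipocyte lists had means for at most 2 genes in any table. The ciliated medians were 1.43 in Her2, 1.28 in C3Tag, -0.07 in AKR, 0.26 in BALB and -0.82 in SEAGN, where Ccdc39 was at 17.3 in PT and 7.42 in Lung met. The Her2 value is that of Ccdc39 alone, at 7.70 in PT and 20.8 in Lung met, which passed the cut-off only through Lung met. The BALB value is that of Foxj1 alone, so the models are not compared over the same genes. The club marker Cyp2f2 had log2 ratios from 1.02 to 3.63, and the adipocyte marker Fabp4 from -2.73 to -0.38 in 4 models. Of the 4 myoepithelial markers, 3 had means in each model, but not the same 3. Krt5 had none in Her2 and C3Tag, Acta2 none in AKR and SEAGN, and Trp63 none in BALB. The medians of these unlike sets of markers ran from -0.81 in C3Tag to 1.12 in BALB. Their part in the ratios was not tested.

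**Figure D5:**
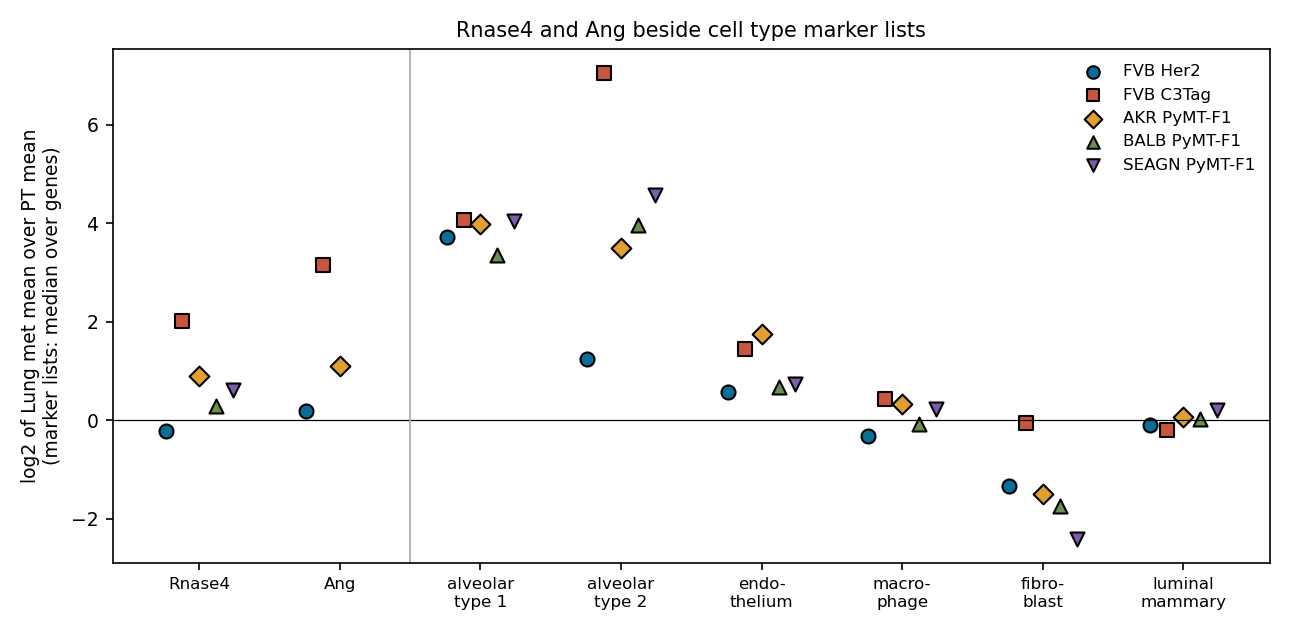
Log2 of the Lung met mean over the PT mean for Rnase4 and Ang, left of the line, and the median of the same over the genes of 6 marker lists, with 1 marker shape per model. The medians of the alveolar lists lie above 0 in every model, from 1.24 (type 2 in Her2) to 7.06 (type 2 in C3Tag). Rnase4 lies between -0.21 in Her2 and 2.02 in C3Tag.

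Among 11795 genes listed once in all 5 tables with a mean of at least 10 in each, the 3 nearest to Rnase4 by Euclidean distance of the 5 log2 ratios were Pygl, Adam19 and St3gal4. Pygl, the liver form of glycogen phosphorylase, lay at a distance of 0.41, with log2 ratios of -0.22 in Her2, 2.07 in C3Tag, 1.19 in AKR, 0.55 in BALB and 0.76 in SEAGN. The metalloprotease gene Adam19 lay at 0.47 and the sialyltransferase gene St3gal4 at 0.48. For Ang, over 3 tables and 15550 genes, the nearest was Hhex, a homeobox transcription factor, at a distance of 0.11, with log2 ratios of 0.19 in Her2, 3.05 in C3Tag and 1.07 in AKR. Il18rap, a subunit of the interleukin-18 receptor, and Mettl7a1, a methyltransferase-like gene, followed, each at 0.39. Rnase4 was not among the 3 genes nearest to Ang. For Rnh1, whose ratios were near 0 like those of most genes, Tmbim4, Slc35d2 and Mapkapk2 lay within 0.0938 to 0.11. These distances describe 3 or 5 points, each the ratio of 2 means.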

How the data were processed

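Bulk RNA-seq libraries of PT and Lung met came from mouse mammary tumor models, 74 samples in 12 groups taken from the sample titles. Alignment, gene counting and normalization were run by the authors in Partek Flow, and the normalization method is not given in the sources used here. The methods name mm9 and mm10, and the submitters' processing notes name STAR 2.7.8a, DESeq2 and mm39. The gene identifiers of Rnase4 and Rnh1 are of the MGP_BALBcJ kind in BALB and SEAGN and of the ENSMUSG kind in Her2, C3Tag and AKR. The notes and methods also name different library kits. The values used here are a signal that the authors deposited: least-squares means of normalized counts per gene and tissue, with replicates pooled. The deposited columns of the authors' own comparisons (p-value, false discovery rate, ratio and fold change) were not used. The Myc table holds no other column and was not analysed.

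From the means, log2 ratios of Lung met over PT were computed with nothing added, and ranked among genes with a mean over both tissues of at least 10. The design named count models for tables of single samples, which did not apply to group means, so no test was made and no p-value is given. Ratios of at least 2-fold were counted. Genes were matched by symbol, and named by a rule: the 3 members, each RNase A family gene with a mean of at least 10, of each other list the genes past 2-fold in every table, or else those with the highest and lowest median log2 ratio, 3 neighbors on each side of each locus and the 3 genes nearest to each member. For the marker lists, counts and medians are given instead, and the single marker genes were named after their values were seen, like Fst, Plxnb2 and Rnasek where the rule did not name them. Results of 1 other list are not reported here. The members and lists were chosen with earlier results of these data known. Coordinates and exons are from GENCODE M21 (GRCm38) and promoters from RefSeq. The steps were tested on simulated data. The tools were Python 3.11.15, numpy 2.4.6, pandas 2.3.3 and, for the figures, matplotlib 3.10.9. The alternatives tried were 1 or 10 added to both means, median centring, equal sums of means, no filter, a 1.5-fold threshold, the sum of Rnase4 and Ang, and next-door in place of overlapping pairs.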

Additional observations from a re-analysis of the deposited data

How the results depend on the processing

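No paired analysis was possible because the deposited tables hold group means, in which the animals shared by PT and Lung met cannot be told apart, and leaving out single replicates was not run for the same reason. For the 13 member values, the fold and not its log2 was compared, so a log2 shift under 0.585 counted as within 1.5 times. That tolerance is wider than every Rnh1 log2 ratio and says little about those. In BALB, for example, the Rnh1 log2 ratio went from 0.05 to 0.02 with median centring. By this measure, all 13 stayed within 1.5 times with 1 or 10 added to both means and after median centring, and 10 did with equal sums of means. The other 3 were those of C3Tag, at 2.82 for Rnase4, 3.96 for Ang and 1.18 for Rnh1, where Gm22614 (PT mean 15645800, Lung met mean 45.4) sets the PT sum. Equal sums turned the sign of the Rnh1 ratio in AKR (0.07 to -0.04) and BALB (0.05 to -0.0032). With equal sums after leaving out the gene with the highest PT mean of each table, an alternative chosen after seeing the data, all 13 stayed within 1.5 times, and the same 2 Rnh1 ratios were again under 0, at -0.04 and -0.02. Ang minus Rnase4 in C3Tag was 0.69 with 10 added, and in AKR 0.06, since 10 is large beside the Ang means. With a 1.5-fold threshold, which is wider by construction, the genes higher in Lung met numbered 850 in Her2, 2559 in C3Tag, 2199 in AKR, 851 in BALB and 959 in SEAGN, against 385, 1378, 1203, 319 and 408 at 2-fold. No filter on low means kept each of these counts, and each rank of a member, within 1.5 times. Against next-door pairs, Ang and Rnase4 differed by more than 80.7% in Her2, 89.9% in C3Tag and 30.8% in AKR. The low means of Ang, at most 193 normalized counts, and the unknown depth limit what can be read from its ratios.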
